A study of Mus musculus with 12 samples.

Results

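The response to LL37 mounted while mTORC1 was inhibited was described from 6 of the 12 skin samples of a mouse rosacea model, with rapamycin (RAPA) given on both sides of the comparison. The samples were taken by their labels: 3 from mice with LL37-induced rosacea-like skin that were treated with RAPA (LL37 + RAPA) and 3 from control mice treated with RAPA (control + RAPA). The other 6 samples, 3 from LL37 mice and 3 from control mice without RAPA, served to show where the response differed and entered the same fit, which shares 1 estimate of the spread. With the 6 RAPA libraries fitted alone 1608 genes were called, of which 1407 were among the 1510 called with all 12. All mice were BALB/c, and per the study's methods these mice were female and 6 to 8 weeks old, with 8 weeks given for the model, in which skin received 40 µl of LL37 or control vehicle intradermally, 2 times a day for 2 days. RAPA was given at 4 mg/kg per day into the peritoneum in the study's BALB/c mice, although the route for the sequenced mice is not in the labels. The skin was whole lesional skin, so each value mixes epidermis, dermis, the fat and muscle beneath, and any infiltrating cells. Fewer cells of a type and less RNA per cell cannot be told apart in such samples. The 3 samples of a group are described in the study as independent biological samples.

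LL37 is the active peptide of cathelicidin, an antimicrobial protein of epithelia and neutrophils that is abundant in rosacea skin. Injected into mouse skin it draws neutrophils and monocytes through chemokines, small secreted proteins that guide leukocytes by gradients, and it stimulates keratinocytes and blood vessels. mTORC1 is a kinase complex that raises protein synthesis, glycolysis and growth when nutrients and growth signals are present, and RAPA inhibits it allosterically through the protein FKBP12. A RAPA-matched control removes what RAPA alone does to skin from the comparison.

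The 6 libraries held 18184939 to 23271784 counts each, and 3 counts, taken here as the floor of detection in a library, corresponded to 0.123 to 0.173 CPM (counts scaled by library size and TMM factor, the unit of every level given here). Counting error was therefore small for most named genes, and the intervals it would give cover counting error only. All 16 skin markers chosen for epidermis, fibroblasts and endothelium were present in every one of these libraries, from 27.9 CPM for the lowest to 8963 CPM for the highest. Skeletal muscle genes were also abundant and moved with LL37: the 59 genes of the muscle list took 9.28, 5.8 and 6.41% of all counts in the control + RAPA libraries and 1.2, 0.583 and 0.878% in the LL37 + RAPA libraries. Their part in the other differences was not tested, but leaving those genes out of the library sizes and the scaling gave 1519 called genes in place of 1510. On the first principal component of the 12 libraries (68.3% of the variance) the LL37 + RAPA libraries lay at 0.527, 29.8 and 19.0. That is between all control libraries with or without RAPA (-70.6 to -50.2) and the LL37 libraries. They stood apart from all others on the second (8.61% of the variance), at -37.4, -45.4 and -40.5, against -4.05 to 33.1. The third LL37 library without RAPA lay away from its own group on the first (64.4, against 133 and 129). That library also entered the fit, since all 12 libraries shared 1 estimate of the spread.

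In LL37 + RAPA vs control + RAPA, 1510 of 17993 tested genes were called (8.39%), 733 higher (4.07%) and 777 lower (4.32%). A call required an adjusted p under 0.05 in edgeR's quasi-likelihood test and an absolute log2 fold change above 1, and without the limit on the fold change 3338 genes passed. The 3 and 3 libraries did not overlap for 1502 of the called genes, where 41.3% of all tested genes did not overlap. Separate libraries are therefore no further result for a gene that was called. Scaling by library size alone raised the median log2 fold change of all genes from -0.01 to 0.18 and changed the split to 1076 higher and 641 lower. RAPA on control skin was compared in the same fit: control + RAPA vs control called 0 genes with edgeR (0%), with 1556 at an unadjusted p under 0.05, and DESeq2 called 53, 2 higher and 51 lower. LL37 + RAPA vs control without RAPA called 386 genes higher (2.15%) and 782 lower (4.35%). The count of higher genes therefore depended on the reference, while that of lower genes hardly moved.

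Of the 6 genes raised with the smallest p among those with separate libraries, AB124611 ranked first, at 2.98, 3.11 and 3.05 CPM in control + RAPA and 15.3, 22.1 and 15.1 CPM in LL37 + RAPA (2.52 ± 0.18 SE on the log2 scale, adjusted p = 8.29e-06, edgeR), and Cpxm1 next. Cpxm1, an inactive member of the carboxypeptidase family that is secreted into the matrix, measured 10.6, 9.98 and 10.9 CPM in control + RAPA and 86, 148 and 97.6 CPM in LL37 + RAPA, a log2 fold change of 3.40 ± 0.29 SE with an adjusted p of 2.17e-05 (edgeR). Tnn, the matrix protein tenascin-N, measured 1.9, 2.91 and 2.07 CPM in control + RAPA and 10.5, 10.4 and 11 CPM in LL37 + RAPA (2.21 ± 0.22 SE on the log2 scale). Fkbp10, a collagen chaperone of the endoplasmic reticulum, and Col18a1, a basement membrane collagen whose fragment is endostatin, rose by 1.52 and 1.03. The cell-cycle inhibitor gene Cdkn2c rose by 1.22. Separate libraries were a condition for choosing these 6 genes and are no further result. The call of Col18a1, close to the fold limit, was lost under 3 of the 15 alternatives tried and that of Cdkn2c under 1.

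The 6 genes lowered with the smallest p included genes of fuel use. Prkaa2, a catalytic subunit of the energy sensor AMPK, measured 49.8, 49.8 and 49.3 CPM in control + RAPA and 8.97, 7.57 and 8.88 CPM in LL37 + RAPA, a log2 fold change of -2.55 ± 0.12 SE (adjusted p = 7.58e-07, edgeR). Mlycd, malonyl-CoA decarboxylase, which relieves the block on fatty acid entry into mitochondria, measured 103, 110.4 and 115 CPM in control + RAPA and 25.1, 23 and 24.3 CPM in LL37 + RAPA (-2.18 ± 0.10 SE on the log2 scale). Gmpr, guanosine monophosphate reductase, fell by 9.62-fold on the linear scale, from 47.5, 37.9 and 39.8 CPM to 4.6, 3.77 and 4.64 CPM. Ptp4a3, a phosphatase, Rilpl1, a binder of Rab GTPases, and Sec31b, a coat component of vesicles leaving the endoplasmic reticulum, had log2 fold changes of -2.98, -2.49 and -2.45. Each of these 6 genes was called in the same direction in LL37 vs control. They too were chosen among genes whose libraries did not overlap. They moved with the muscle list, whose share of counts is given above.

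Across genes, the response with RAPA followed that without RAPA at about 50% of its size. Of the 1510 genes called with RAPA, 1274 (84.4%) were called in the same direction in LL37 vs control, which called 3516 genes (19.5%), 1570 higher (8.73%) and 1946 lower (10.8%), and 7 were called in opposite directions. These 1274 genes were 36.2% of those called without RAPA. No library was shared between these comparisons. Among genes called without RAPA the median log2 fold change with RAPA was 49.4% of the value without, and the slope through the origin over all genes was 0.50 (Pearson correlation across 17993 genes 0.788, which are not independent replicates). Among genes called with RAPA the same median was 79.9%, so the figure depends on which comparison chose the genes. The shares of 8.73% higher and 10.8% lower are the base for each list count without RAPA given below.

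**Figure D1:**
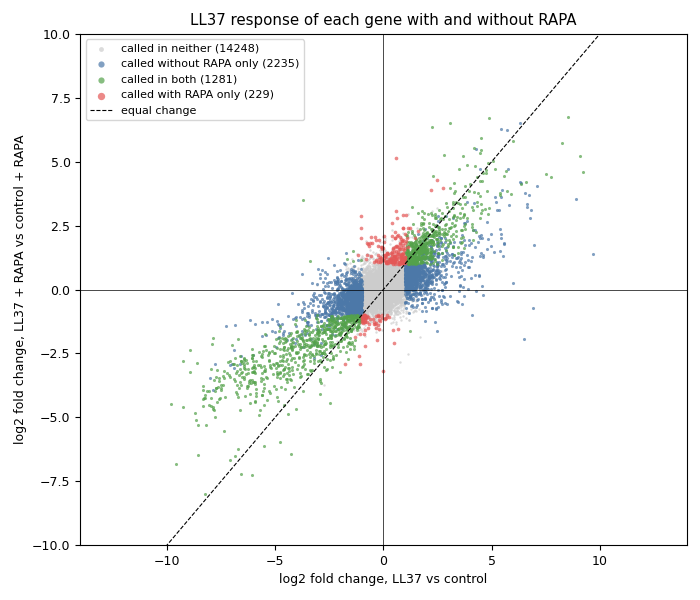
The log2 fold change of each of the 17993 tested genes in LL37 + RAPA vs control + RAPA (vertical) against that in LL37 vs control (horizontal), coloured by call, with a dashed line for equal change. Most coloured points lie between the horizontal axis and the dashed line, and 229 genes were called with RAPA only.

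The difference between both LL37 responses was tested gene by gene as an interaction, and 429 genes were called (2.38%), 312 with a higher value under RAPA (1.73%) and 117 with a lower one (0.65%). The shares of 1.73% and 0.65% are the base for each list count in the difference given below. Of the 312, 281 fell in LL37 vs control, and 129 of these also fell with RAPA while 146 were not called there. Of the 117, 89 rose in LL37 vs control, and 87 of these were not called with RAPA. The smallest adjusted p was 0.0142 and none passed 0.01, and the count moved with single libraries. It was 2 without LL37 + RAPA replicate 1, 261 without replicate 2 and 120 without replicate 3 of that group, 180, 129 and 17 without each control + RAPA replicate in turn, 23, 373 and 128 without each control replicate, and 96, 252 and 1760 without each LL37 replicate. Levels in all 4 groups are therefore given for some of the genes called in it, such as Egln3, Vegfa, Col15a1 and Ces1d. The others are named by their call alone, by the value of the difference or with their levels under RAPA only. A gene that missed the threshold in this test was not shown to respond alike on both sides.

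Some chemokines that recruit neutrophils were called higher with LL37 under RAPA, while Cxcl1 and Cxcl2, given below, were not. Of the 16 tested genes of the neutrophil chemoattractant and G-CSF list, which holds CXC chemokines, chemoattractant receptors and the growth factor axis of neutrophils, 10 were called higher, where 4.07% of all tested genes were, and 0 lower, with a median log2 fold change of 3.67 (3.27 with genes at the floor set to their bound) against -0.01 for all genes. This and all other lists were chosen with earlier results of these data known, so their shares describe the members and are not a test. Cxcl5 (chr5:90759360-90761624, GRCm38), made by epithelium and a ligand of CXCR2, measured 0.325, 0.494 and 0.576 CPM in control + RAPA and 8.21, 40.8 and 26.4 CPM in LL37 + RAPA, a log2 fold change of 5.74 ± 1.08 SE (adjusted p = 0.00346, edgeR). The highest control + RAPA library lay well under the lowest LL37 + RAPA library. Ppbp, a platelet chemokine precursor, was at or under the floor in each control + RAPA library (0.163, 0.0494 and 0.115 CPM) and reached 3.61, 13.3 and 2.16 CPM in LL37 + RAPA, at least 39.5-fold higher. Csf3r, the receptor by which G-CSF drives neutrophil production, went from 5.31, 3.16 and 3.57 CPM to 38, 146 and 123 CPM (4.67 ± 0.73 SE on the log2 scale). It is no chemokine and is also counted in the list of neutrophil genes below.

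The best known ligands of this group were less clear. Cxcl1 measured 3.14, 3.65 and 2.07 CPM in control + RAPA and 4.79, 19.4 and 11.6 CPM in LL37 + RAPA and did not pass the test (2.01 ± 0.71 SE on the log2 scale, adjusted p = 0.0716, edgeR), although the groups did not overlap. Cxcl2 measured 10.8, 0.346 and 1.09 CPM in control + RAPA and 4.89, 30.2 and 4.46 CPM in LL37 + RAPA, and its first control + RAPA library lay above 2 of the LL37 + RAPA libraries (1.71 ± 1.37 SE, adjusted p = 0.446). Cxcl3, singled out after its values were seen because its promoter is shown here, measured 0.651, 0.198 and 0.288 CPM in control + RAPA and 3.7, 14.1 and 3.16 CPM in LL37 + RAPA and was called (4.20 ± 1.15 SE, adjusted p = 0.0244). Without RAPA the corresponding log2 fold changes were 4.54, 4.99, 6.60 and, for Cxcl5, 8.27, and 15 of the 16 genes were called higher, yet 0 of the 16 were called in the difference of both responses (edgeR, with 2 at an unadjusted p under 0.05, and 0 with DESeq2). The count of 10 fell to 6 without LL37 + RAPA replicate 2 and without each control + RAPA replicate in turn.

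These 3 chemokine genes lie on chromosome 5, and the bases before their starts are shown because NF-kB, the transcription factor that responds to Toll-like receptors and IL-1, is known to act there. Sequences are from RefSeq for GRCm38.p6, written 5′ to 3′ on the strand of the gene, with matches on either strand to the κB motif, the consensus site of NF-kB, in capitals.
Cxcl1, chr5:90891126-90891213, plus strand: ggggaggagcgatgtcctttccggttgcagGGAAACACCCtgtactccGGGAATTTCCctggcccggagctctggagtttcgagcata
Cxcl2, chr5:90903772-90903860, plus strand: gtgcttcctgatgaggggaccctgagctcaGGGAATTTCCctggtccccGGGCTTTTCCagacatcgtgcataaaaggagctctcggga
Cxcl3, chr5:90785998-90786067, plus strand: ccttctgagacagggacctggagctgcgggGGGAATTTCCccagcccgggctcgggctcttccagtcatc
Cxcl1 and Cxcl2 each held 2 matches that did not overlap and Cxcl3 held 1. In the window from 250 bases before to 50 after the start, 4.78% of 27025 mouse promoters and 5.53% of the 12460 found for tested genes held this motif. It was in 7.05% of the 539 found for genes called higher under RAPA, 5.27% of the 550 for genes called lower, 4.82% of the 83 for genes lower in the difference, and 3 of the 13 found for the list. A match is a description of the letters only.

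Among 45 further chemokines and receptors, 13 were called higher (28.9%, against 4.07% of all tested genes) and 1 lower (Cxcl13, a B cell attractant), with a median log2 fold change of 0.72. Ccl2, the main ligand of the monocyte receptor CCR2, measured 8.62, 6.72 and 13.5 CPM in control + RAPA and 73.5, 121 and 55.9 CPM in LL37 + RAPA, a log2 fold change of 3.12 ± 0.52 SE (adjusted p = 0.00162, edgeR), and its value without RAPA was 2.56. Ccl7 and Ccl12, neighbours of Ccl2 on chromosome 11 that act on the same receptor, rose by 3.61 and 5.03. Ccl12 measured 0.38, 0.148 and 0.115 CPM in control + RAPA and 6.74, 9.09 and 5.77 CPM in LL37 + RAPA. The receptor Ccr1 went from 2.11, 2.67 and 5.53 CPM to 28.3, 63.3 and 35.9 CPM. For all of these genes the groups were separate, as for 1502 of the 1510 called genes. Of all 45 genes 0 were called in the difference of both responses (edgeR, with 10 at an unadjusted p under 0.05, and 0 with DESeq2).

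Some chemokines did not pass. Ccl3, a neutrophil and macrophage product, measured 1.52, 0.0494 and 0.46 CPM in control + RAPA and 0.759, 2.87 and 2.66 CPM in LL37 + RAPA (adjusted p = 0.372, edgeR), with overlapping groups. Cxcl11, an interferon-induced ligand of CXCR3, stayed near the floor on both sides (0.108, 0.198 and 0.115 CPM and 0.427, 0.164 and 0.135 CPM). Cxcl12, made by stromal cells, had an adjusted p of 0.0311 but a log2 fold change of 0.77 ± 0.22 SE, under the limit.

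Neutrophil genes were higher under RAPA in 14 of 31 tested members (45.2%, against 4.07% of all tested genes) and lower in 0, with a median log2 fold change of 3.23 (2.82 with bounds). Mmp8, the granule collagenase of neutrophils, measured 0.271, 0.247 and 0.0576 CPM in control + RAPA and 2.37, 10.2 and 14 CPM in LL37 + RAPA (5.46 ± 0.84 SE, adjusted p = 0.00108, edgeR). Every LL37 + RAPA library exceeded every control + RAPA library for this gene. The calprotectin subunits did not pass: S100a8 measured 13.4, 6.32 and 6.1 CPM in control + RAPA and 13.4, 54.9 and 65.5 CPM in LL37 + RAPA (adjusted p = 0.136) and S100a9 12.5, 3.56 and 3.86 CPM in control + RAPA and 20.6, 75.6 and 102 CPM in LL37 + RAPA (adjusted p = 0.0516). Replicate 1 of LL37 + RAPA was the lowest of its group for Mmp8, S100a8 and S100a9. The summed level of the list was 290.3, 283 and 263 CPM in control + RAPA, 541, 1131 and 1120.2 CPM in LL37 + RAPA and 5984, 5544 and 1669 CPM in LL37. Without RAPA 29 of the 31 genes were called higher, and 1 of the 31, Hcar2, a receptor of ketone bodies and nicotinic acid, was called in the difference. The count of 14 was 7 without LL37 + RAPA replicate 2 and 8 without LL37 + RAPA replicate 3 or any 1 control + RAPA replicate.

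Macrophage and monocyte genes were called in similar numbers on both sides: 17 of 39 were called higher and 2 lower with RAPA, and 21 and 2 without. With RAPA the shares were 43.6% and 5.13%, against 4.07% and 4.32% of all tested genes. Spp1, osteopontin, a matrix and cytokine-like protein of activated macrophages, measured 7.32, 9.19 and 8.86 CPM in control + RAPA and 93.3, 241 and 201 CPM in LL37 + RAPA, a log2 fold change of 4.40 ± 0.54 SE (adjusted p = 0.000264, edgeR) against 4.34 ± 0.54 SE without RAPA. Msr1, a scavenger receptor, went from 2.82, 2.67 and 3.4 CPM to 33.7, 82 and 42.2 CPM. Chil3, a chitinase-like protein of monocytes and alternatively activated macrophages, went from 0.217, 0.296 and 0.115 CPM to 3.46, 10.6 and 10.2 CPM. The list had a median log2 fold change of 1.42, 20 of its 39 members had a smaller value than without RAPA and 19 a larger one, and only Saa3, an acute-phase protein also counted among the antimicrobials, was called in the difference. The genes called lower were Retnla, a resistin-like protein, and Cd209f, a lectin, and 0 were called lower without LL37 + RAPA replicate 3 or control + RAPA replicates 1 or 3. Mmp12, the elastase of macrophages, did not pass: its control + RAPA libraries spread from 18.3, 14.2 and 78.1 CPM across the LL37 + RAPA values of 67, 80.6 and 69.3 CPM.

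**Figure D2:**
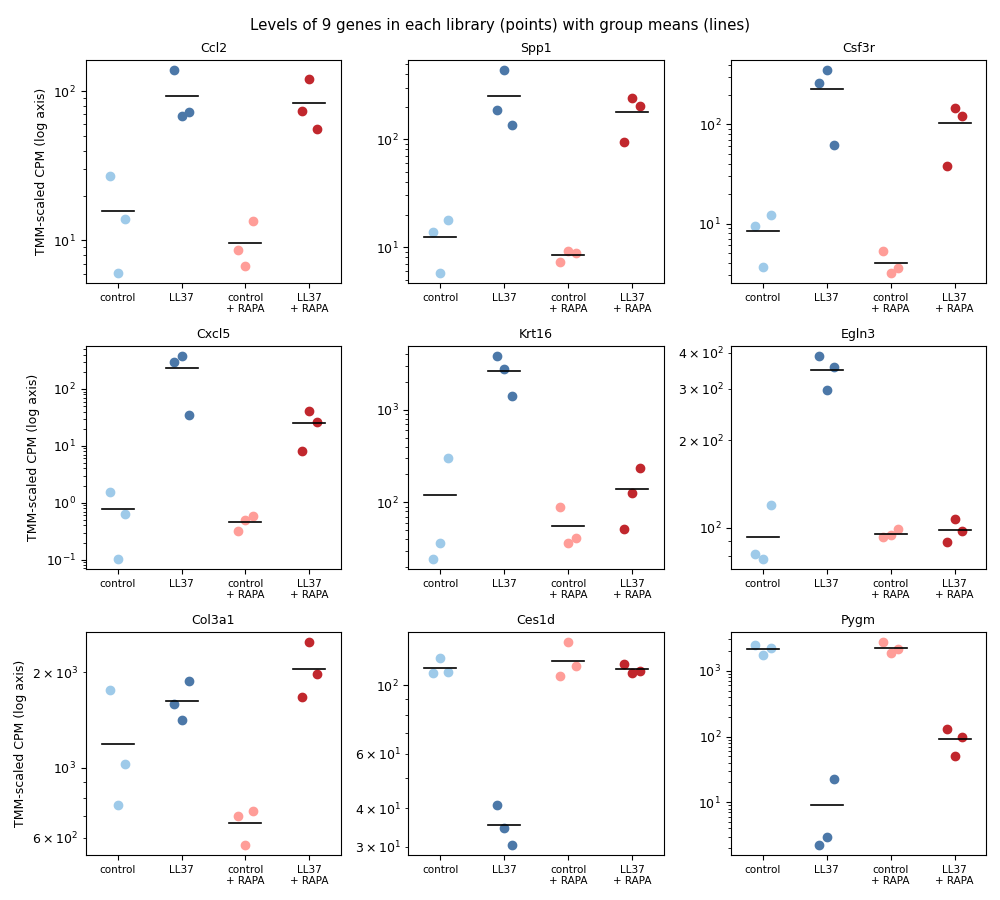
TMM-scaled CPM (log axis) of 9 genes in each of the 12 libraries, with points for libraries and lines for group means. Ccl2, Spp1, Csf3r and Cxcl5 are higher in all 3 LL37 + RAPA libraries than in any control + RAPA library, Krt16 overlaps, Egln3 and Ces1d overlap under RAPA, Col3a1 is higher and Pygm lower.

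Lists of other leukocytes differed in their share of calls. Among 18 dendritic and Langerhans cell genes 4 were called higher (22.2%, against 4.07% of all tested genes), with Ccr7, the receptor that leads dendritic cells to lymph nodes (1.97 ± 0.52 SE, adjusted p = 0.0211, edgeR), Flt3, a growth factor receptor of their precursors (1.64), and Fscn1, an actin bundler (1.46). That count was 1 without LL37 + RAPA replicate 2 or control + RAPA replicate 1 and 2 without control + RAPA replicate 2. Of 25 T and NK cell genes 1 was called higher, a share of 4.0% that is near that of all tested genes: Thy1, which fibroblasts also express (78.8, 52.9 and 76 CPM in control + RAPA and 152, 214 and 162 CPM in LL37 + RAPA). Trbc2, a T cell receptor constant region, had a log2 fold change of -0.43 ± 0.19 SE (adjusted p = 0.143). Of 15 mast cell genes 0 were called in edgeR, where 0 had an unadjusted p under 0.05, and 0 in DESeq2, with Mcpt4, a mast cell chymase, at 25.5, 47.8 and 37.6 CPM in control + RAPA and 39.2, 94.2 and 55.1 CPM in LL37 + RAPA and Kit, the stem cell factor receptor, at 8.57, 15.8 and 8.98 CPM in control + RAPA and 16.4, 21.2 and 12.9 CPM in LL37 + RAPA. Only 2 of 9 B cell genes were tested and 0 were called in edgeR or DESeq2 or had an unadjusted p under 0.05, with log2 fold changes of -0.26 for the adaptor Blnk and -0.53 for the heavy chain Ighm.

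Of 40 tested interleukins and other cytokines 6 were called higher (15.0%, against 4.07% of all tested genes) and 0 lower (median log2 fold change 0.32), while 23 rose and 2 fell without RAPA. Tnfsf14, a TNF family ligand known as LIGHT, measured 0.325, 0.198 and 0.173 CPM in control + RAPA and 3.46, 8.92 and 6.4 CPM in LL37 + RAPA (4.72 ± 0.82 SE, adjusted p = 0.00215, edgeR). Osm, oncostatin M, an IL-6 family cytokine of neutrophils and macrophages, measured 0.325, 0.444 and 0.115 CPM in control + RAPA and 1.76, 5.85 and 2.3 CPM in LL37 + RAPA, and Ltb, lymphotoxin beta, 2.28, 2.22 and 1.73 CPM in control + RAPA and 4.36, 11.9 and 12.1 CPM in LL37 + RAPA. All 3 were separate between groups, as nearly all called genes were. The list count was 2 without LL37 + RAPA replicate 2 and 3 without control + RAPA replicate 1 or 2.

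The classical inflammatory cytokines did not pass under RAPA. Il1b measured 9.87, 0.84 and 1.27 CPM in control + RAPA and 2.56, 16.6 and 9.69 CPM in LL37 + RAPA (1.28 ± 1.32 SE, adjusted p = 0.57, edgeR), with the first control + RAPA library above 2 of the LL37 + RAPA libraries. The annotation places an antisense gene over it, and whether counting used strand is not stated. Il6 was near the floor in control + RAPA (0.271, 0.198 and 0.115 CPM) and 1.19, 3.56 and 1.35 CPM in LL37 + RAPA (adjusted p = 0.0758). Tnf measured 2.39, 1.09 and 2.36 CPM in control + RAPA and 2.09, 3.03 and 3.52 CPM in LL37 + RAPA (adjusted p = 0.564). Without RAPA all 3 were called, at log2 fold changes of 4.62, 6.62 and 2.18, and the difference itself was not called for any of them (edgeR, adjusted p = 0.304, 0.357 and 0.264). It was called for the epithelial alarmins Il1a and Il1f9 and for Inhba, an activin subunit, all lower under RAPA, and for Tgfb2, higher.

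On the list of IL-1 and IL-6 family receptors and STAT3 feedback, 3 of 20 genes were called higher under RAPA (15.0%, against 4.07% of all tested genes) and 13 without. The 3 under RAPA were Il18rap, a subunit of the IL-18 receptor (0.542, 1.19 and 1.9 CPM in control + RAPA and 7.07, 14.3 and 11.8 CPM in LL37 + RAPA), Il4ra, of the IL-4 receptor (1.54 on the log2 scale), and Il10ra, of the IL-10 receptor (1.15). Il4ra and Il10ra are thus not receptors of the IL-1 or IL-6 family. The count was 1 without LL37 + RAPA replicate 2 and 5 without replicate 1. Of 39 NF-kB pathway genes 3 were called higher (7.69%, against 4.07% of all tested genes), each a Toll-like receptor: Tlr13 (2.22, 2.86 and 5.24 CPM in control + RAPA and 14.7, 35 and 21.1 CPM in LL37 + RAPA), Tlr1 (1.57, 1.83 and 1.96 CPM in control + RAPA and 5.36, 12.4 and 10.1 CPM in LL37 + RAPA) and Tlr6 (2.01, 2.07 and 2.01 CPM in control + RAPA and 5.46, 8.88 and 7.26 CPM in LL37 + RAPA), which sense bacterial RNA and lipopeptides. It was 5 without LL37 + RAPA replicate 1. Tlr2, the partner of TLR1 and TLR6, measured 5.26, 3.9 and 3.86 CPM in control + RAPA and 6.64, 16.9 and 11.2 CPM in LL37 + RAPA and missed the threshold (1.42 ± 0.52 SE, adjusted p = 0.0825, edgeR). The subunits had log2 fold changes of 0.39 ± 0.14 SE for Nfkb1, 0.38 ± 0.16 SE for Nfkb2, 0.01 ± 0.12 SE for Rela and 0.23 ± 0.21 SE for Relb, with adjusted p from 0.069 to 0.97. The levels of Rela overlapped between groups (94.3, 100.2 and 95.8 CPM and 87.6, 108 and 97.1 CPM).

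Interferon-stimulated genes set the sides apart in counts: 3 of 39 were called higher under RAPA (7.69%, against 4.07% of all tested genes) and 29 of 39 without, although 0 of 39 were called in the difference of both responses (edgeR, with 10 at an unadjusted p under 0.05, and 1 with DESeq2). Zbp1, a nucleic acid sensor, measured 1.68, 1.63 and 2.13 CPM in control + RAPA and 6.97, 4.05 and 8.88 CPM in LL37 + RAPA and Oas2, an antiviral synthetase, 9.98, 6.96 and 6.91 CPM in control + RAPA and 24.8, 18.5 and 38.8 CPM in LL37 + RAPA. Irf8, a transcription factor of myeloid cells, rose by 1.36 against 1.36 without RAPA. The summed level of the list was 375, 352 and 363 CPM in control + RAPA, 572, 455 and 693 CPM in LL37 + RAPA, 848, 451 and 1087 CPM in control and 4053, 1582 and 1989 CPM in LL37. All control + RAPA libraries thus lay below all control libraries, and with control without RAPA as the reference 0 of the 39 were called higher and Zbp1 turned to -0.70. The count of 3 was 5 without LL37 + RAPA replicate 2 and 1 without control + RAPA replicate 2.

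**Figure D3:**
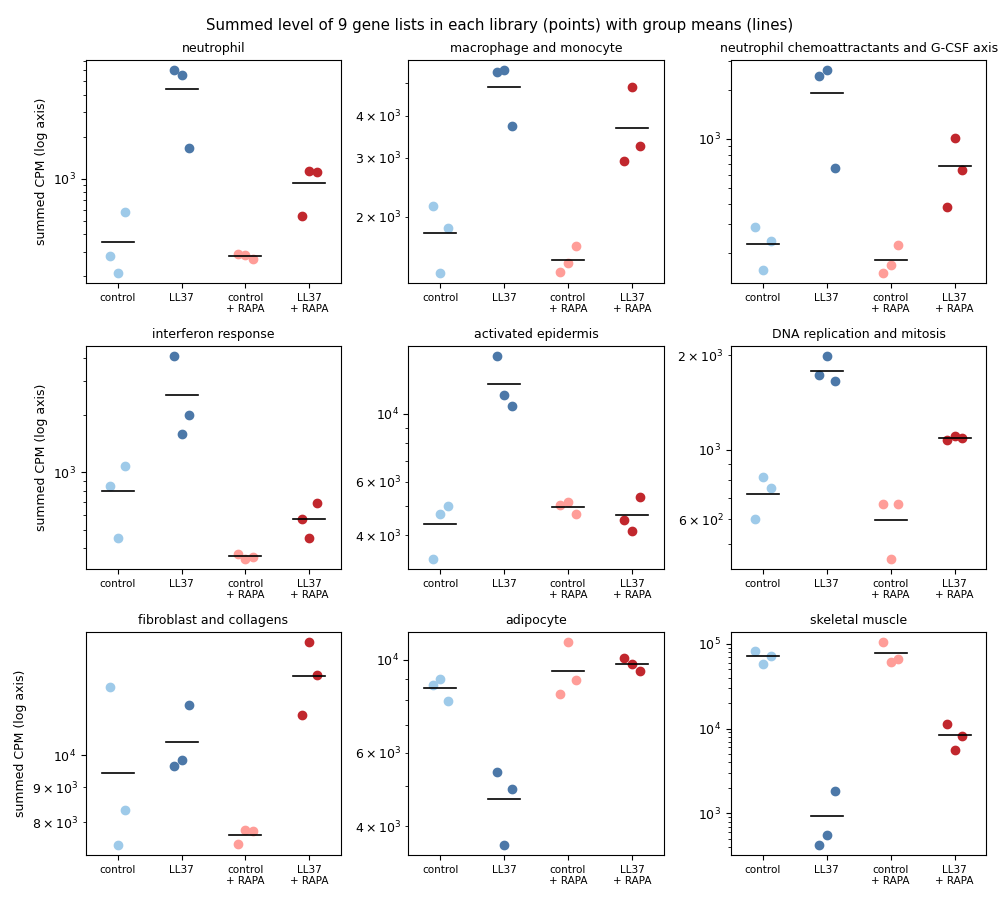
Summed TMM-scaled CPM (log axis) over the members of 9 gene lists in each of the 12 libraries, with points for libraries and lines for group means. Muscle sums fall from 60964.6 CPM or more in control + RAPA to 11294.5 CPM or less in LL37 + RAPA, adipocyte sums overlap under RAPA and are lower in LL37 alone, and neutrophil sums are higher in every LL37 + RAPA library than in any control + RAPA library.

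Matrix and fibroblast genes were among the most often raised under RAPA. Of 48 proteases, inhibitors and wound matrix genes 19 were called higher (39.6%, against 4.07% of all tested genes) and 0 lower (median log2 fold change 0.86), with 23 and 2 without RAPA, and the count was 12 without LL37 + RAPA replicate 2. Timp1, an inhibitor of metalloproteinases, measured 6.34, 4.64 and 6.56 CPM in control + RAPA and 60.4, 90.8 and 92.7 CPM in LL37 + RAPA (3.80 ± 0.54 SE, adjusted p = 0.000618, edgeR). Mmp9, gelatinase B, a product of neutrophils and keratinocytes, measured 21.6, 17.8 and 28.8 CPM in control + RAPA and 69.9, 161 and 90.9 CPM in LL37 + RAPA. Beside these, the list includes Mmp8 and Spp1, given above. The groups did not overlap for any of these 4 genes, as for nearly all called genes. Has3, a hyaluronan synthase, and Mmp10 were lower under RAPA in the difference of both responses.

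Fibroblast and collagen genes were called higher in 14 of 34 (41.2%, against 4.07% of all tested genes) and lower in 0 under RAPA. In LL37 vs control 4 rose and 4 fell, near the 8.73% and 10.8% of all tested genes. Col3a1, a fibrillar collagen of healing dermis, measured 703, 568 and 729 CPM in control + RAPA and 1668, 2489.5 and 1979 CPM in LL37 + RAPA (1.62 ± 0.27 SE, adjusted p = 0.00172, edgeR). Col8a1 rose by 1.65 ± 0.26 SE and Col15a1, a basement membrane collagen, by 1.62 ± 0.22 SE. For Col15a1 the levels were 89.7, 44.1 and 49.4 CPM in control and 51.9, 64.3 and 64.2 CPM in LL37, and 33.8, 35.7 and 40.8 CPM in control + RAPA and 112, 123 and 105 CPM in LL37 + RAPA, and it was called in the difference (1.65 ± 0.31 SE, adjusted p = 0.0246), as were Col5a3 and the microfibril gene Mfap5. Of the 34 genes 28 had a larger value with RAPA than without. The median difference was 0.63 for the list and 0.01 for all tested genes. The reference mattered here: against control without RAPA 5 of the 34 were called higher, and the count was 9 without LL37 + RAPA replicate 2. Muscle, fat and leukocyte lists moved in the same samples, and their part in the collagen levels was not tested.

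Vessel and adhesion genes were called higher in 10 of 35 (28.6%) and lower in 1 (2.86%), against 4.07% and 4.32% of all tested genes. Apln, apelin, a peptide of sprouting endothelium, measured 1.46, 1.14 and 2.07 CPM in control + RAPA and 14.4, 18.8 and 10.6 CPM in LL37 + RAPA (3.24 ± 0.35 SE, adjusted p = 0.000108, edgeR). Itgam, the alpha chain of the leukocyte integrin Mac-1, measured 9.54, 11.9 and 18.9 CPM in control + RAPA and 71.4, 99.5 and 65 CPM in LL37 + RAPA, so the leading genes include a leukocyte ligand for endothelium. The gene called lower was Vegfb, with 2 lower calls without control + RAPA replicate 1. The endothelial markers Pecam1, Cdh5 and Kdr had log2 fold changes of 0.44, 0.28 and -0.39 and were not called. Vegfa, the chief growth factor of vessels, measured 106, 190.1 and 162 CPM in control + RAPA and 71.1, 88.6 and 86.7 CPM in LL37 + RAPA, all 3 libraries lower (-0.89 ± 0.20 SE, adjusted p = 0.0103, under the fold limit), against 139, 109 and 126 CPM in control and 284, 231 and 194 CPM in LL37 (0.92 ± 0.20 SE). Its difference was called (-1.81 ± 0.29 SE, adjusted p = 0.0198).

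Proliferation genes shifted together but modestly. Of 50 DNA replication and mitosis genes 23 were called higher (46.0%, against 4.07% of all tested genes) and 0 lower. At an adjusted p under 0.05 alone (edgeR) 44 were higher, as were 1475 of all 17993 tested genes. Between groups 48 did not overlap, where 41.3% of all tested genes did not, and the median log2 fold change was 0.96. Without RAPA 43 were called higher, against 8.73% of all tested genes. Mcm10, a replication initiation factor, measured 2.44, 0.889 and 1.73 CPM in control + RAPA and 5.74, 5.44 and 7.26 CPM in LL37 + RAPA (1.87 ± 0.34 SE, adjusted p = 0.00297). The spindle checkpoint kinases Bub1 and Bub1b rose by 1.43 and 1.53. This count moved with the reference, the libraries and the scaling: it was 1 against control without RAPA, 5 without control + RAPA replicate 2, 14 without LL37 + RAPA replicate 2 and 38 with scaling by library size alone. The list sums were 671, 447 and 670.3 CPM in control + RAPA, the second library lowest, 599.9, 821 and 752 CPM in control and 1072, 1105 and 1089 CPM in LL37 + RAPA.

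Of 44 genes of activated epidermis, the stress keratins, small proline-rich proteins, late envelope proteins and growth factors that keratinocytes express in wounds and psoriasis, 2 were called higher under RAPA (4.55%, near the 4.07% of all tested genes). Without RAPA 26 were called higher, against 8.73% of all tested genes, with a list median of 1.78. All 44 had a smaller value with RAPA. The slope over all genes was 0.50, so smaller values are common among genes raised without RAPA. Krt6a measured 362, 592 and 356 CPM in control + RAPA and 518, 401 and 792 CPM in LL37 + RAPA (adjusted p = 0.58, edgeR) and 219, 255 and 674 CPM in control and 2072, 1304 and 1698 CPM in LL37. Krt16 measured 88.2, 36.2 and 41.5 CPM in control + RAPA and 52.1, 126 and 235 CPM in LL37 + RAPA (adjusted p = 0.329) and 24.4, 36.6 and 299.8 CPM in control and 3772, 2746 and 1425 CPM in LL37. The groups overlapped under RAPA for both keratins and not without RAPA, but the difference was not called for either (adjusted p = 0.107 and 0.153). It was called, lower under RAPA, for Il1f9, Klk6, Krt17, Sprr1a, Tgfa and Tgm1. The called pair was Plaur, the urokinase receptor, which leukocytes also express (13.7, 7.11 and 14.4 CPM in control + RAPA and 37.6, 85.1 and 41.6 CPM in LL37 + RAPA), and Sprr2a2, at 0 CPM in all control + RAPA libraries and 0.0949, 0.164 and 0.18 CPM in LL37 + RAPA, close to the floor and one of a family of near-identical genes among which reads may be split. The count was 0 without LL37 + RAPA replicate 2 or control + RAPA replicates 1 or 2, and 1 without each of the other 3 samples.

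Genes of resting and cornifying epidermis mostly had small negative values. Of 46 genes 1 was called higher (2.17%, under the 4.07% of all tested genes) and 0 lower. At an adjusted p under 0.05 alone (edgeR) 13 had a negative log2 fold change, where 1863 of all 17993 tested genes did. Of the 46, 37 were below 0 and 35 did not overlap (41.3% of all tested genes did not). The median was -0.53, against 0.01 in LL37 vs control. Lce1d and Lce1a1, late envelope proteins of the stratum corneum with close relatives in the genome, had log2 fold changes of -0.69 ± 0.12 SE and -0.62 ± 0.12 SE (adjusted p = 0.00175 and 0.00512). Lce1d measured 159.8, 167 and 168 CPM in control + RAPA and 108, 93.4 and 104 CPM in LL37 + RAPA. Krt2, a keratin of upper epidermis, was the called gene (2.06, 0.642 and 0.863 CPM in control + RAPA and 6.45, 3.52 and 2.7 CPM in LL37 + RAPA), yet it stood at 9.92, 10.3 and 9.8 CPM in control skin and turned to -1.24 against that reference. The call of Krt2 was also lost without LL37 + RAPA replicate 1 or control + RAPA replicates 2 or 3. Hrnr, Klk7, Lce1e, Lce1g and Tchh were called lower under RAPA in the difference of both responses. With scaling by library size alone the median of all genes was 0.18, a shift that small values such as these must be read against.

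Antimicrobial and acute-phase genes were called higher in 8 of 33 and lower in 1 (18 and 2 without RAPA). With RAPA the shares were 24.2% and 3.03%, against 4.07% and 4.32% of all tested genes. Pglyrp1, a peptidoglycan recognition protein of neutrophil granules, measured 1.25, 1.58 and 1.38 CPM in control + RAPA and 3.46, 8.68 and 10.8 CPM in LL37 + RAPA (2.44 ± 0.54 SE, adjusted p = 0.0089, edgeR), and Ptx3, a pentraxin that tags microbes, 6.07, 2.67 and 2.65 CPM in control + RAPA and 14.1, 37.5 and 27.9 CPM in LL37 + RAPA. Reg3g, an epithelial lectin, was at or under the floor in control + RAPA and 0.237, 0.409 and 0.27 CPM in LL37 + RAPA, at least 1.90-fold higher. Camp, the mouse gene for cathelicidin itself, stayed at the floor or just above it on both sides (0.163, 0.148 and 0.0576 CPM in control + RAPA and 0.285, 0.0409 and 0.0451 CPM in LL37 + RAPA). The gene called lower was Itih4, an acute-phase protein of liver, a call lost without any 1 sample except LL37 + RAPA replicate 1 and control + RAPA replicate 3. Chil1, Defb14, Klk13, Klk6 and Saa3 were called lower under RAPA in the difference. The count of 8 was 2 without LL37 + RAPA replicate 2 or control + RAPA replicate 3, 3 without LL37 + RAPA replicate 3 and 5 without control + RAPA replicate 1. Among 25 hair follicle genes 1 was called higher (4.0%, near the 4.07% of all tested genes), Fgf5, which ends hair growth (0.922, 0.346 and 0.633 CPM in control + RAPA and 2.18, 2.5 and 0.947 CPM in LL37 + RAPA), and the hair keratin Krt36 was at 0.759, 0.988 and 0.748 CPM and 0.427, 0 and 0 CPM (adjusted p = 0.0506). The call of Fgf5 was lost without LL37 + RAPA replicates 1 or 2 or control + RAPA replicates 2 or 3, and Krt17 and Tchh, given above, were the list's 2 calls in the difference.

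**Figure D4:**
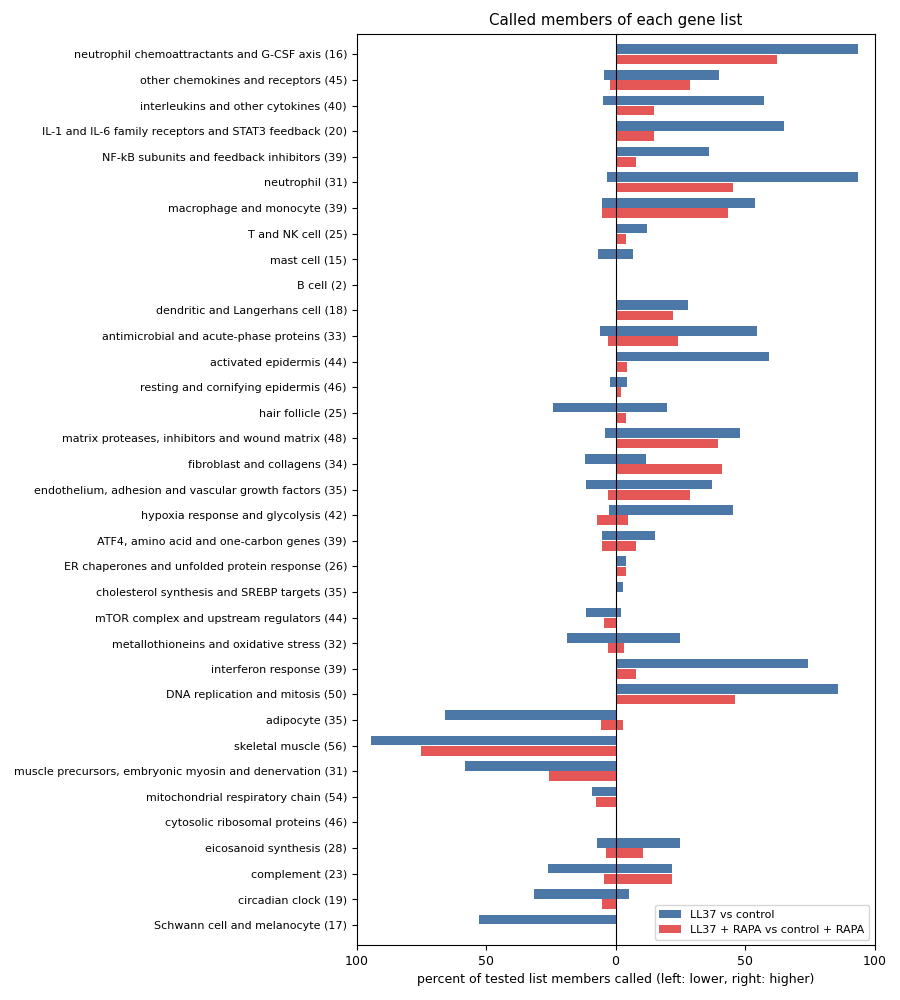
Percent of the tested members of each of the 35 gene lists (number tested in brackets) called higher (right) or lower (left) in LL37 vs control and in LL37 + RAPA vs control + RAPA. The bar for higher genes is longer with RAPA for fibroblast genes (14 of 34 against 4), of similar length for macrophage genes (17 of 39 against 21) and short for activated epidermis (2 of 44 against 26) and interferon genes (3 of 39 against 29). Of all tested genes 4.07% were called higher with RAPA and 8.73% without.

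The list of hypoxia and glycolysis genes holds targets of hypoxia-inducible factor, whose translation mTORC1 is known to promote, and the enzymes of glycolysis. Under RAPA 2 of 42 were called higher (4.76%, near the 4.07% of all tested genes) and 3 lower (7.14%, against 4.32%). The median log2 fold change was -0.00. In LL37 vs control 19 rose and 1 fell, where 8.73% and 10.8% of all tested genes did, with a list median of 0.94. In the difference 11 were called, all lower, against 0.65% of all tested genes. With RAPA 41 of 42 had a smaller value. The slope over all genes was 0.50, so smaller values are common among genes raised without RAPA. Egln3 (chr12:54178981-54203860), an oxygen-sensing prolyl hydroxylase induced by hypoxia, measured 93.3, 94.3 and 98.9 CPM in control + RAPA and 89.9, 108 and 97.3 CPM in LL37 + RAPA, overlapping, and 81.2, 78.2 and 119.7 CPM in control and 388, 297 and 357 CPM in LL37, well apart. Its difference was -1.86 ± 0.22 SE on the log2 scale (adjusted p = 0.0142, edgeR). Ndrg1, a stress-induced gene, behaved alike at 115, 155 and 131 CPM in control + RAPA and 136, 172 and 148 CPM in LL37 + RAPA against 104, 93 and 116 CPM in control and 439, 346 and 305 CPM in LL37 (difference -1.62 ± 0.22 SE, adjusted p = 0.0171). Slc2a1, the glucose transporter GLUT1, singled out after its values were seen, measured 73.1, 59.9 and 80.8 CPM in control + RAPA and 87.5, 117 and 89.4 CPM in LL37 + RAPA and 65.9, 77.2 and 100.3 CPM in control and 531, 373 and 263 CPM in LL37 (difference -1.80 ± 0.34 SE).

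Car9, a carbonic anhydrase of hypoxic cells, was called on both sides: 1.3, 1.04 and 1.44 CPM in control + RAPA and 3.27, 4.79 and 3.74 CPM in LL37 + RAPA, and 1.99, 1.69 and 2.74 CPM in control and 20.8, 20.3 and 18.9 CPM in LL37, with log2 fold changes of 1.65 and 3.22 and a called difference of -1.57 ± 0.31 SE. Hk2, a hexokinase of muscle, fat and growing cells, fell from 194, 143 and 228 CPM to 66.9, 72.8 and 62 CPM. Aldoa, the aldolase most abundant in muscle, fell from 8574, 5679 and 6824 CPM to 1244, 903 and 1048 CPM, and it has 2 identifiers of the same symbol in the annotation, of which the one with more counts was used. The summed level of the list was 16398, 11761 and 13704 CPM in control + RAPA and 6257, 6608 and 6111 CPM in LL37 + RAPA, lower in all 3, and 14127, 12176 and 14327 CPM in control and 13204, 12318 and 9866 CPM in LL37, overlapping. Aldoa alone held a large part of the sums without LL37. Its means were 7025 CPM in control + RAPA, 1065 CPM in LL37 + RAPA, 6165 CPM in control and 1015 CPM in LL37. The sums therefore do not describe a typical member, the list median under RAPA being -0.00. The other calls were Car12, higher, and Bnip3, lower. Higher calls were 1 without any 1 sample except control + RAPA replicate 1, and lower calls were 5 without control + RAPA replicate 2. Hk2 and Aldoa moved with the muscle list, and the part of muscle in these falls was not tested. The 11 calls rest on the difference test whose dependence on single libraries is given above.

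The letters ACGTG, the core to which hypoxia-inducible factor binds, were looked for on both strands, the palindrome CACGTG counting as 2 overlapping matches. They occurred in 20 of the 36 promoters found for the list (55.6%), in 19.6% of 27025 mouse promoters and in 24.2% of the 12460 found for tested genes. Of the 11 genes called in the difference 9 had a promoter in the table, and 6 of these held the letters. The 3 whose matches lay before both the RefSeq start and the start of the gene model are shown, from RefSeq for GRCm38.p6, with the matches in capitals.
Bnip3, chr7:138909579-138909644, minus strand: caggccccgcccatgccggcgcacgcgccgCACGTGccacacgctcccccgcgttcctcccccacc
Egln3, chr12:54204069-54204124, minus strand: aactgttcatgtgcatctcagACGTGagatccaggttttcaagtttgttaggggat
Pgk1, chrX:106186920-106187003, plus strand: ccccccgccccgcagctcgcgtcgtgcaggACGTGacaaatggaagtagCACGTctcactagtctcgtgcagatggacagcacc
Egln3 held 1 match, first base 229 bases before its start, Bnip3 held an overlapping pair and Pgk1 held 2 apart. Bnip3, a mitophagy receptor, and Pgk1, a glycolytic kinase, were singled out for these sequences after their values were seen, and measured 73.8, 127 and 80.5 CPM in control + RAPA and 41, 45.6 and 42.4 CPM in LL37 + RAPA and 377, 278 and 309 CPM in control + RAPA and 192, 234 and 201 CPM in LL37 + RAPA, with differences of -1.18 and -1.18. Genes called lower in the difference held the letters in 19 of 83 promoters (22.9%), near the share for all tested genes.

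Of 44 mTOR subunits and upstream regulators 0 were called higher and 2 lower (4.55%, near the 4.32% of all tested genes). At an adjusted p under 0.05 alone (edgeR) 11 had a negative log2 fold change, where 1863 of all 17993 tested genes did. Rragd, a Rag GTPase that brings mTORC1 to the lysosome and is abundant in muscle, measured 75.7, 59.4 and 61.5 CPM in control + RAPA and 8.02, 6.96 and 8.84 CPM in LL37 + RAPA (-3.05 ± 0.28 SE, adjusted p = 3.32e-05, edgeR), and Castor2, an arginine-sensor relative, 91, 58.8 and 50.8 CPM in control + RAPA and 33.4, 30.2 and 27.8 CPM in LL37 + RAPA. Rragd was also called in the difference (2.19). The call of Castor2 was lost with scaling by library size alone and without control + RAPA replicate 1. These are transcript levels and carry no measure of kinase activity.

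Of 39 ATF4, amino acid and one-carbon genes, a programme that mTORC1 can drive, 3 were called higher (7.69%) and 2 lower (5.13%), near the shares of all tested genes. Aldh1l2, a mitochondrial folate enzyme, measured 0.976, 0.741 and 1.38 CPM in control + RAPA and 2.89, 4.09 and 4.15 CPM in LL37 + RAPA, while Chac1, a glutathione-degrading enzyme, measured 33.8, 51.8 and 33.6 CPM in control + RAPA and 6.26, 6.26 and 6.9 CPM in LL37 + RAPA and Vldlr, a lipoprotein receptor, 58.8, 51.9 and 70.0 CPM in control + RAPA and 13, 11.5 and 13.5 CPM in LL37 + RAPA. The 3 higher calls were 0 against control without RAPA, 5 with library-size scaling and 5 without control + RAPA replicate 3. Of 26 chaperones of the endoplasmic reticulum 1 was called higher (3.85%, near the 4.07% of all tested genes), Sdf2l1 (1.01 ± 0.28 SE, adjusted p = 0.0268, edgeR). At an adjusted p under 0.05 alone 12 had a positive log2 fold change, where 1475 of all 17993 tested genes did. Among them were Edem1, of protein quality control (0.82), and Pdia6, a disulfide isomerase (0.73). Sdf2l1 lost its call without LL37 + RAPA replicate 2 or control + RAPA replicates 1 or 2.

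Of 35 cholesterol synthesis genes 0 were called in edgeR or DESeq2 and 9 had an unadjusted p under 0.05, with Insig1, the sterol-sensing brake on that pathway, at a log2 fold change of 0.48 ± 0.18 SE and the cholesterol exporter Abca1 at 0.39 ± 0.10 SE (adjusted p = 0.0799 and 0.0149). Of 32 metallothionein and oxidative stress genes 1 rose, Akr1b8, an aldo-keto reductase (11.2, 12.9 and 10.6 CPM in control + RAPA and 22.8, 32.9 and 27.1 CPM in LL37 + RAPA), and 1 fell, Gpx3, a secreted glutathione peroxidase (498, 961 and 557 CPM in control + RAPA and 217, 227 and 218 CPM in LL37 + RAPA). Each share was 3.1%, under the 4.07% higher and 4.32% lower of all tested genes. The higher count was 2 without LL37 + RAPA replicate 3 or control + RAPA replicate 3. In the difference, Gsta4 was called higher and Hmox1 lower. Of 46 cytosolic ribosomal protein genes 0 were called in edgeR or DESeq2 and 2 had an unadjusted p under 0.05, the leading values being 0.25 ± 0.10 SE for Rpl13a and 0.23 ± 0.10 SE for Rpl3.

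Among 28 eicosanoid genes 3 were called higher (10.7%) and 1 lower (3.57%), against 4.07% and 4.32% of all tested genes. Alox5ap, which hands arachidonic acid to the leukotriene pathway of leukocytes, measured 10.6, 12.1 and 14.4 CPM in control + RAPA and 40.8, 69.9 and 48.2 CPM in LL37 + RAPA (2.10 ± 0.23 SE, adjusted p = 0.000133, edgeR). Alox15, a lipoxygenase, went from 0.0542, 0.0494 and 0.806 CPM to 1.76, 1.92 and 1.04 CPM and Ptger2, a prostaglandin E receptor, rose by 1.31. The 3 higher calls were 1 without LL37 + RAPA replicate 2 or control + RAPA replicate 1. The lower call, Pla2g4e, was lost without any 1 sample except control + RAPA replicate 3. Ltb4r2, Ptges and Ptgs2 were called lower and Ptger3 higher in the difference.

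Among 23 complement genes 5 were called higher (21.7%) and 1 lower (4.35%), against 4.07% and 4.32% of all tested genes. C5ar2, a receptor of the fragment C5a, measured 0.163, 0.198 and 0.288 CPM in control + RAPA and 0.474, 2.17 and 1.26 CPM in LL37 + RAPA and C6, a pore component, 3.52, 2.62 and 2.13 CPM in control + RAPA and 0.996, 0.205 and 0.27 CPM in LL37 + RAPA, and Itgam, above, is also the complement receptor chain. The lower call was C6, lost without LL37 + RAPA replicates 2 or 3 or control + RAPA replicate 1, with 2 lower calls without control + RAPA replicate 3, and C4b was called higher in the difference. Of 19 clock genes 1 was called lower (5.26%, near the 4.32% of all tested genes) and 0 higher, with a median log2 fold change of -0.28. The repressor Nr1d1, which was not called, had a log2 fold change of -0.73 ± 0.24 SE (adjusted p = 0.052, edgeR). Of 17 Schwann cell and melanocyte genes 0 were called with RAPA in edgeR or DESeq2 and 1 had an unadjusted p under 0.05. Without RAPA 9 were called lower, against 10.8% of all tested genes. The myelin gene Prx measured 35.5, 42.1 and 41.6 CPM in control + RAPA and 31.9, 11.9 and 30.2 CPM in LL37 + RAPA. The myelin gene Mbp measured 127, 154 and 134 CPM in control + RAPA and 125, 70.9 and 113 CPM in LL37 + RAPA. The second LL37 + RAPA library was the lowest for both myelin genes.

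Muscle genes fell on both sides. Of 56 tested skeletal muscle genes 42 were called lower (75.0%, against 4.32% of all tested genes) and 0 higher under RAPA, with a median log2 fold change of -3.11, and 53 without RAPA, with a median of -6.59. Pygm, muscle glycogen phosphorylase, measured 2699, 1894 and 2137 CPM in control + RAPA and 130.0, 51 and 96.8 CPM in LL37 + RAPA (-4.60 ± 0.73 SE, adjusted p = 0.00129, edgeR). Ckmt2, mitochondrial creatine kinase, and Mylk2, myosin light chain kinase of skeletal muscle, had log2 fold changes of -4.82 and -4.57. The share of counts on the list was 7.16% ± 1.86 (SD, n = 3) in control + RAPA and 0.886% ± 0.308 (SD, n = 3) in LL37 + RAPA. All 3 libraries were lower, and the two-sided exact permutation test gave p = 0.1, the smallest that 3 against 3 allows. In LL37 without RAPA the share was 0.0990% ± 0.0859 (SD, n = 3), so the list stood higher with RAPA, and 15 of its genes were called higher in the difference.

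Muscle precursor and denervation genes fell in 8 of 31 (25.8%, against 4.32% of all tested genes) and rose in 0. Mstn, myostatin, the brake on muscle growth, measured 64.1, 23.5 and 17.7 CPM in control + RAPA and 1.38, 0.491 and 0.811 CPM in LL37 + RAPA, Vgll2, a muscle transcription cofactor, 44, 44.5 and 46.3 CPM in control + RAPA and 2.66, 1.15 and 2.16 CPM in LL37 + RAPA, and Trim63, a ubiquitin ligase of muscle wasting, 258, 542 and 275 CPM in control + RAPA and 46.2, 27.3 and 37.2 CPM in LL37 + RAPA. For all 3 genes every LL37 + RAPA library was lower, and nearly all called genes were separate in this way. That count was 5 without LL37 + RAPA replicates 2 or 3 or control + RAPA replicate 2. Of 54 respiratory chain genes 4 were called lower (7.41%, against 4.32% of all tested genes). At an adjusted p under 0.05 alone (edgeR) 42 had a negative log2 fold change, where 1863 of all 17993 tested genes did. The 3 with the largest falls, Cox8b (-3.72), Cox6a2 (-3.51) and Cox7a1 (-3.36), are the muscle isoforms of cytochrome oxidase subunits, and the list median was -0.55 against -0.62 without RAPA. Cox6a2 and Cox8b were also called higher in the difference.

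Fat genes did not fall with LL37 under RAPA as a group. Of 35 adipocyte genes 1 was called higher (2.86%) and 2 lower (5.71%), near the 4.07% and 4.32% of all tested genes, with a median log2 fold change of 0.10. In LL37 vs control 23 fell (median -1.43), where 10.8% of all tested genes did, and 14 were called higher in the difference, against 1.73%. Ces1d (chr8:93166068-93197838), a carboxylesterase of fat that cleaves triglycerides, measured 107, 138 and 116 CPM in control + RAPA and 117, 109.5 and 111 CPM in LL37 + RAPA, overlapping, and 109, 122 and 111 CPM in control and 40.9, 34.5 and 30.4 CPM in LL37, apart (difference 1.60 ± 0.17 SE, adjusted p = 0.0142, edgeR). The adipokine gene Lep, leptin, spread widely in control + RAPA (8.08, 64.4 and 16.1 CPM) around 47.9, 47.2 and 72 CPM in LL37 + RAPA. Of the called members, Plin5 and Slc2a4 are also muscle genes: Slc2a4, the insulin-regulated glucose transporter, measured 127, 107 and 119.6 CPM in control + RAPA and 25.2, 24 and 25.6 CPM in LL37 + RAPA and Plin5, a lipid droplet protein, 15.8, 35.5 and 14.9 CPM in control + RAPA and 4.6, 3.32 and 6.54 CPM in LL37 + RAPA. Adrb3, the adrenergic receptor of fat, measured 6.51, 12.5 and 5.24 CPM in control + RAPA and 15.5, 24.7 and 22.6 CPM in LL37 + RAPA (adjusted p = 0.0493) and was the gene called higher, a call lost without any 1 of 5 samples, all except control + RAPA replicate 2. The count of lower calls was 2 or 3 whichever sample was left out.

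Outside the lists, the genes with the smallest p in the difference of both responses split in the same way. Lower under RAPA were Bnc1, a keratinocyte zinc finger protein (17.8, 17.9 and 18 CPM in control + RAPA and 19.5, 19.5 and 24.1 CPM in LL37 + RAPA, against 13.2, 13.7 and 14.6 CPM in control and 80.8, 71.3 and 42.4 CPM in LL37, difference -1.99 ± 0.28 SE), and Kctd11 (-1.52 ± 0.18 SE), beside Egln3 and Ndrg1. Higher under RAPA were Apol6 (18.2, 26 and 21.9 CPM in control + RAPA and 24.7, 21.5 and 26 CPM in LL37 + RAPA, against 30.7, 16.9 and 24.3 CPM in control and 3.48, 2.51 and 5.13 CPM in LL37), Lctl (3.60 ± 0.49 SE), the mitochondrial carrier Slc25a23 (1.23 ± 0.17 SE) and the potassium channel Kcnc1 (4.68 ± 0.65 SE), beside Ces1d. Apol6 overlaps the myoglobin gene Mb on the other strand, and whether counting used strand is not stated. Kcnc1 also fell under RAPA, from 58.4, 42.5 and 61.5 CPM to 3.13, 1.92 and 1.67 CPM.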

How the data were processed

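RNA from 12 mouse skin samples was sequenced on libraries made with the Illumina TruSeq kit. The deposited file holds counts per gene that the authors made from reads aligned to mm10. Per the labels' processing notes the tools were HISAT2 2.0.5, StringTie 1.3.3b, featureCounts 1.5.0-p3 and DESeq2 1.16.1, while the study's methods name HTSeq as the counter, so which counter made the table was not settled. Reads shared between near-identical genes may have been split or dropped, and strand use in counting is not stated. Gene names came from the GENCODE M21 annotation (52489 of 52636 identifiers). Every column of the table belonged to a sample.

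Counts were tested with edgeR 4.0.16 in R 4.3.3: TMM scaling, filterByExpr by group (17993 genes kept), 1 quasi-likelihood fit of 4 group means over all 12 libraries, and Benjamini-Hochberg adjusted p under 0.05 with an absolute log2 fold change above 1 as the call. SE is the absolute log2 fold change divided by the square root of F. All 12 libraries share 1 estimate of the spread. The script was tested on simulated data. DESeq2 1.42.0, other scalings, filters and thresholds, a replicate block and each library left out were alternatives.

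Lists and members were chosen with earlier results of these data known. Named genes are the 6 genes called higher and the 6 called lower that rank first by p and whose libraries do not overlap, predicted genes passed over, for each list the 3 called genes with the largest change (the 2 with the smallest p where fewer than 2 are called), the 5 ranked first by p in the difference in either direction, 24 genes fixed by name, and list members at or under the floor in control + RAPA that were called. Of 3 listed names no gene was found. Some genes that this rule names are not reported here.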

Additional observations from a re-analysis of the deposited data

Results flagged for a closer look

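The LL37 responses with and without RAPA differed for 429 genes by the interaction test (edgeR, adjusted p under 0.05 and absolute log2 difference above 1), and each value here is the log2 fold change with RAPA minus that without. Among named genes, members of the muscle, mitochondrial, mTOR and fat lists with a higher value under RAPA were Cox6a2 and Mylk2 at 3.41, Cox8b at 3.06, Rragd at 2.19, Slc2a4 at 2.02 and Ces1d at 1.60. Col15a1, of the collagen list, differed by 1.65. Outside the lists the values were 4.68 for Kcnc1, 3.60 for Lctl, 2.80 for Apol6, 1.23 for Slc25a23 and 1.01 for Prkaa2. Lower under RAPA were the hypoxia genes Egln3 at -1.86, Vegfa at -1.81, Ndrg1 at -1.62 and Car9 at -1.57, and the genes Bnc1 at -1.99 and Kctd11 at -1.52. The groups of 3 samples are too small for a search for single outlying samples.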

How the results depend on the processing

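The count of 1510 genes called in LL37 + RAPA vs control + RAPA stayed between 1020 and 1717 under other scalings, filters, tests and references, was 3338 with no limit on the fold change and 1006 at an adjusted p under 0.01, and ranged from 1074 to 1466 when 1 library was left out. Its split moved more: with control without RAPA as the reference, higher calls were 386 in place of 733 and lower calls 782 in place of 777. Without RAPA the 3516 calls became 7668 with no limit on the fold change and 3006 to 4287 when 1 library was left out. The 429 differences became 822 when all genes with at least 1 count in total were kept, 1008 with DESeq2, 0 at an adjusted p under 0.01 (590 at 0.05 with no limit on the fold change, 4049 at an unadjusted p under 0.05) and 2 to 1760 when 1 library was left out, the causes not being tested. A fit with the replicate block, in which same-numbered libraries share a term, called 1444, 3480 and 199 genes, and same-numbered libraries of LL37 + RAPA and control + RAPA correlated at only 0.112, 0.00931 and 0.139 in their deviations from the group means, so the numbers were not taken to pair the samples. The DESeq2 count of 53 for control + RAPA vs control was added after the data were seen. Over genes called under RAPA the median percent of the response left was 79.9 in place of 49.4, it ranged from 37.9 to 54.9 when 1 library was left out, and the slope from 0.39 to 0.55. With control without RAPA as the reference Krt2 turned to -1.24 and Zbp1 to -0.70. List counts of higher genes that moved by over 1.5 times included these. With control without RAPA as the reference they were 6 of chemoattractants in place of 10, 8 of neutrophil genes in place of 14, 3 of cytokines in place of 6, and 0 in place of 2 for hypoxia and of 1 for T and NK cells, Krt2's list, ER chaperones and oxidative stress. With at least 10 counts in every library they were 5 of chemoattractants and 8 of neutrophil genes, and the lower calls were 25 in place of 42 for muscle, 4 in place of 8 for muscle precursors and 2 in place of 4 for the respiratory chain. NF-kB pathway genes had 6 with DESeq2, with at least 1 count in total and with only the 6 libraries fitted, and 7 with library size only, in place of 3. Interferon genes had 6 with DESeq2, library size only and at least 1 count in total, 7 with the replicate block and 8 with only the 6 libraries fitted, in place of 3. Antimicrobials had 13 with DESeq2 in place of 8, neutrophil genes 9 with the replicate block, and IL-1 and IL-6 family receptors and eicosanoid genes each 5 with library size only in place of 3. The lower call of the eicosanoid list was lost under 8 scalings, filters, tests and references. Of 87 named genes called, 53 kept their call under every alternative tried and 34 lost it under at least 1. Depth limits genes near the floor, such as Camp, Cxcl11, Reg3g and Sprr2a2.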
